A study of Mus musculus with 9 samples.

Results

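The imprinted genes examined here were 36 mouse genes taken by symbol from a list of known imprinted loci, and 33 of them had a row among the 20655 genes of each table. Rtl1, Mkrn3 and Snurf had no matching row and were not analysed here. The libraries were made from stromal cells of the inguinal and axillary subcutaneous white fat of C57BL/6 mice aged 12 days, male and female mixed, which had been sorted by flow cytometry into DPP4+, ICAM1+ and CD142+ populations. Each population had 3 libraries, none of the mice carried an allele or received a treatment according to the labels, and separate animals or pools for the 3 libraries are not named in them. Each p-value thus reflects how far libraries of a population differed, a spread that may be technical. The tables hold, for each gene, the mean normalised read count over all 9 libraries and the log2 fold change between a pair of populations with its standard error (SE) and p-value. They hold no value per library. Levels per population below were therefore back-calculated from these columns (the mean and the fold changes), and have no error of their own. The errors are those of the fold changes, with n = 3 libraries in each population throughout, and a pair of values joined by ± is a log2 fold change with its SE.

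An imprinted gene is read mainly from the copy inherited from 1 parent, and the choice is set by DNA methylation laid down in the egg or sperm at a control region that often governs several neighbouring genes. Many paternally expressed genes promote growth of the embryo and many maternally expressed genes restrain it, and several, among them Dlk1, Mest and Grb10, are known regulators of fat tissue. The tables do not separate the parental copies, so the values below are summed over both.

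The sorted populations carried the transcripts of their labels. The fitted level of Dpp4 was 5466 normalised counts in DPP4+, 89.9 in ICAM1+ and 729 in CD142+ cells. F3, the gene that encodes CD142, stood at 243, 311 and 1469 in the same order. Icam1 stood at 1162, 7966 and 7058, so its transcript was about as high in CD142+ as in ICAM1+ cells (log2 difference 0.17 ± 0.15, SE). All 8 fibroblast and preadipocyte markers had a mean above 100, but their levels differed. In ICAM1+ cells 6 of 8 were lower than in DPP4+ cells and 1, Pdgfra, was higher (0.36 ± 0.11), with a median of -0.63. The largest differences were in Cd34 (-2.13 ± 0.10), Ly6a (-1.95 ± 0.12), Apod (-0.96 ± 0.15) and Col1a1 (-0.73 ± 0.10). Also, 6 of 8 had lower values in ICAM1+ than in CD142+ cells, while 2 were lower and 1 higher in CD142+ against DPP4+ cells. Of all genes tested, 12.0% were lower in ICAM1+ than in DPP4+ cells and 5.28% were lower than in CD142+ cells. In CD142+ against DPP4+ cells 8.91% were lower and 10.1% higher. The summed fitted level of the 8 markers was 1400322 in DPP4+, 920084 in ICAM1+ and 1442436 in CD142+ cells. Most of it came from Col3a1 and Col1a1 (825373 and 508937 in DPP4+ cells). The 2 markers lower in CD142+ than in DPP4+ cells were Cd34 (-1.44 ± 0.10) and Ly6a (-1.26 ± 0.12). The part of these differences in the values of the imprinted genes was not tested.

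Against DPP4+ cells, 8 members were higher in both other populations, namely Zim1, Peg3, Usp29, Nnat, Airn, Mest, Copg2 and Gnas. Another 4, Cdkn1c, Grb10, Sgce and Rian, were lower in both. Dlk1 and Peg10 passed as higher in ICAM1+ cells against each of the other populations. Of the 32 members with an adjusted p in ICAM1+ against DPP4+, 12 were higher and 7 lower (37.5% and 21.9%), beside 12.4% and 12.0% of the 17851 genes tested. In CD142+ against DPP4+, 9 of 32 were higher and 8 lower (28.1% and 25.0%), beside 10.1% and 8.91% of 17450 genes. In ICAM1+ against CD142+, 6 of 31 were higher and 5 lower (19.4% and 16.1%), beside 3.77% and 5.28% of 15848 genes. The members were better measured than most genes, and 22 of them had a mean of at least 100. Among all 7952 genes in that range, 16.6% were higher and 20.5% lower in ICAM1+ against DPP4+ cells, against 45.5% and 22.7% of the 22 members, so the share of lower members was close to that background. For CD142+ against DPP4+ the same shares were 14.0% and 14.4% of genes and 31.8% and 36.4% of members. For ICAM1+ against CD142+ they were 4.9% and 8.51% of genes and 27.3% and 13.6% of members. When fold changes were re-centred, by subtracting the median of the 7952 better-measured genes, the split in CD142+ against DPP4+ moved from 9 higher and 8 lower to 10 and 5. The median log2 fold change of the tested members was 0.09, -0.02 and 0.05 in the 3 comparisons, beside 0.02, -0.01 and 0.00 over all genes tested. For the 22 members with a mean of at least 100 the medians were 0.16, -0.11 and 0.24, beside -0.07, -0.05 and -0.02 for the 7952 genes in that range. The calls therefore went in both directions in each comparison, with the median over all tested members near 0.

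**Figure D1:**
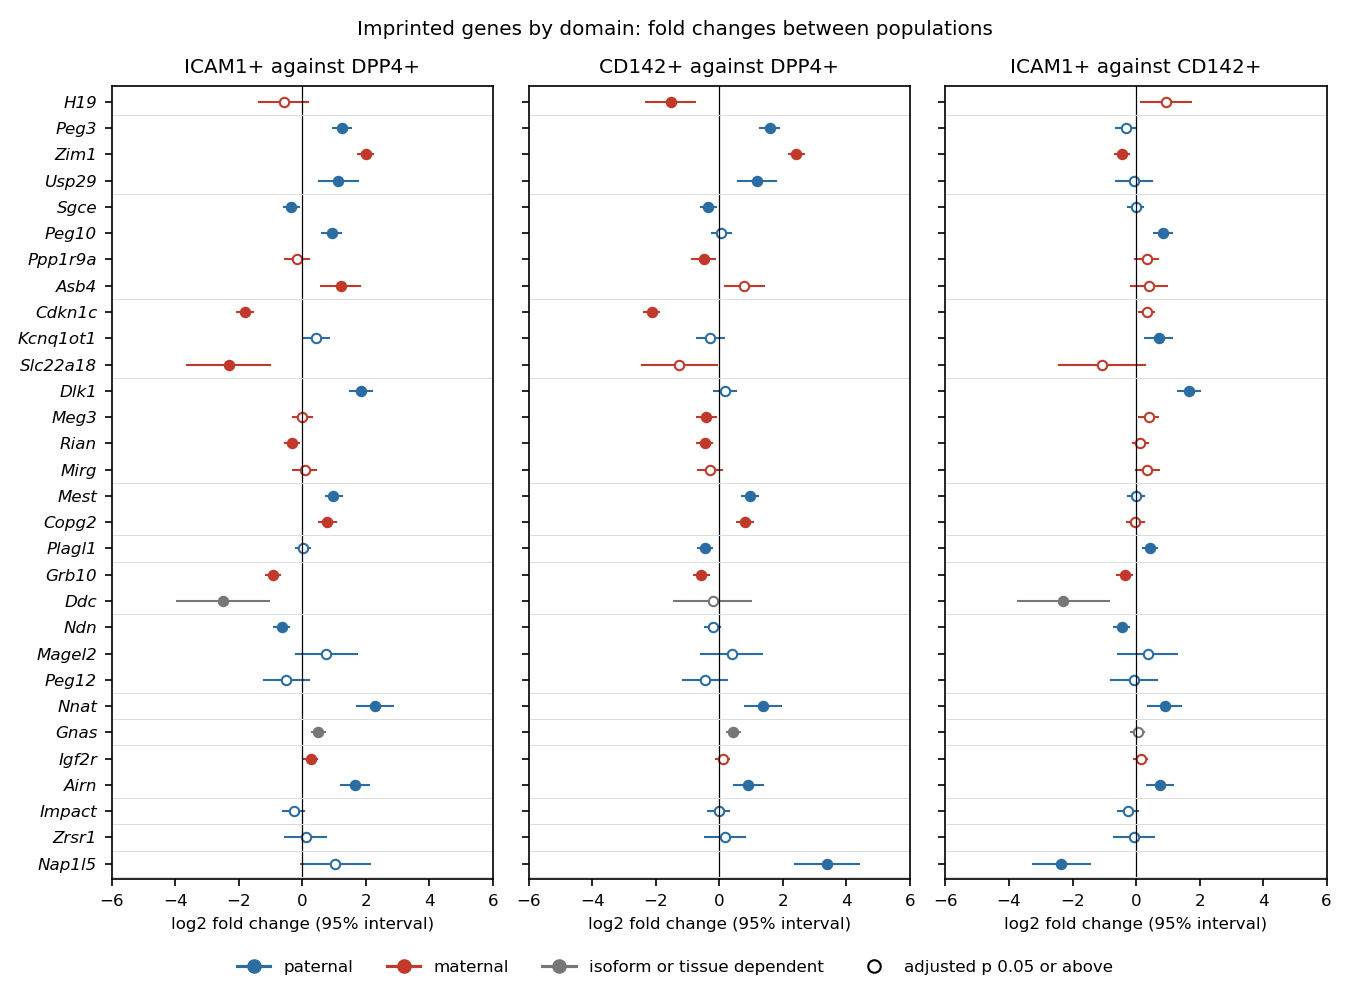
Log2 fold change of each imprinted gene with a mean of at least 10 in the 3 comparisons, with 95% intervals, grouped by domain between the grey lines and coloured by the parental copy expressed. Filled points passed an adjusted p of 0.05. Zim1 and Peg3 lie to the right of 0 in both comparisons against DPP4+, Cdkn1c lies to the left in both, and Dlk1 is called in both comparisons of ICAM1+ cells, while its interval spans 0 in CD142+ against DPP4+.

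Per kilobase of exon, H19 was far above the other members in every population, at 25398 fitted normalised counts per kb in DPP4+, 16849 in ICAM1+ and 8775 in CD142+ cells. The next by mean level per kb were Gnas (1322), Cdkn1c (745), Plagl1 (543), Peg3 (487) and Mest (455). Igf2r (431), Dlk1 (427) and Zim1 (365) followed at closely similar levels. Kcnq1ot1, a very long non-coding RNA, was the lowest of the 22 at 1.42 per kb. The order differed between populations. Cdkn1c was second only to H19 in DPP4+ cells at 1476 per kb, and stood at 423 in ICAM1+ and 336 in CD142+ cells. Dlk1 stood at 805 per kb in ICAM1+ cells, above Plagl1 (598), and at 222 in DPP4+ and 253 in CD142+ cells.

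**Figure D2:**
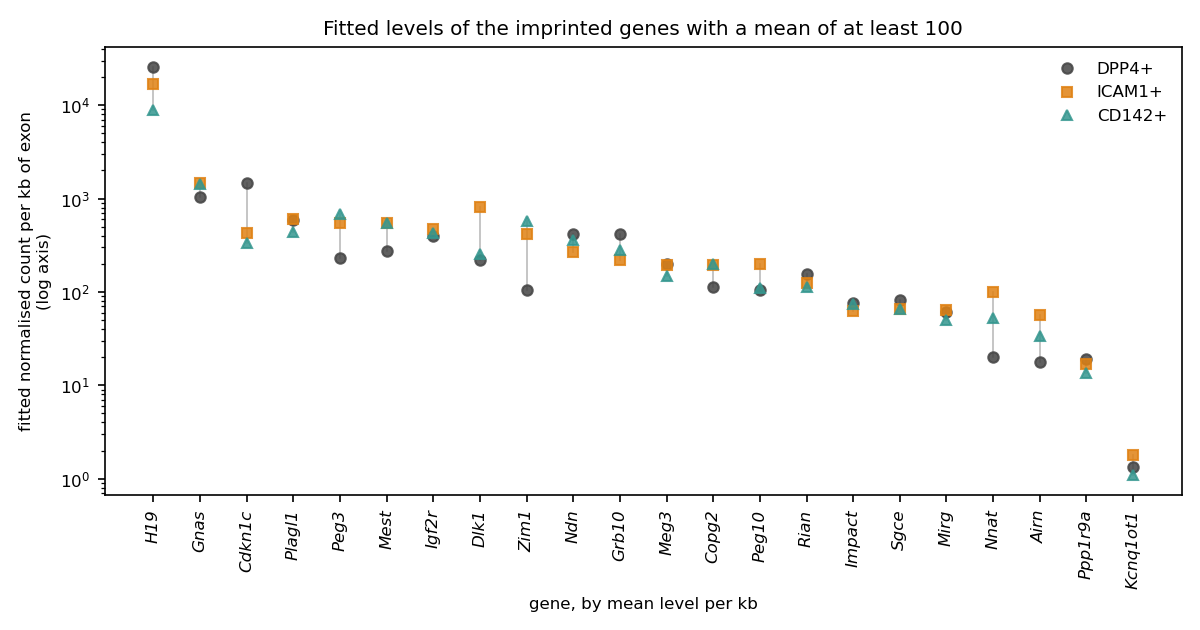
Fitted level per kb of exon, on a log axis, of the 22 imprinted genes whose mean was at least 100, in DPP4+ (circles), ICAM1+ (squares) and CD142+ cells (triangles), with genes ordered by mean level. H19 leads in each population, and Cdkn1c, Zim1, Dlk1 and Nnat show the widest gaps between populations.

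Among the growth-promoting members, 4 of the 5 with a row were higher in ICAM1+ than in DPP4+ cells and none was lower, with a median log2 fold change of 0.98, beside 12.4% higher and 12.0% lower over all genes tested. In CD142+ against DPP4+ cells 2 of 5 were higher and 1 lower, with a median of 0.19, beside 10.1% and 8.91% of all genes tested. Igf2, an imprinted growth promoter outside the list, was lower than in DPP4+ cells in both populations (-0.71 ± 0.16 in ICAM1+ and -1.51 ± 0.16 in CD142+ cells). Dlk1, a membrane-bound and shed EGF-like protein that restrains adipocyte differentiation, had fitted levels of 1256 normalised counts in DPP4+, 4551 in ICAM1+ and 1434 in CD142+ cells. It was 3.62-fold higher in ICAM1+ than in DPP4+ cells (log2 fold change 1.86 ± 0.18, SE, adjusted p = 2.67e-24, Wald test) and 3.17-fold higher than in CD142+ cells (1.67 ± 0.18, adjusted p = 7.42e-19). Between CD142+ and DPP4+ cells the difference was 0.19 ± 0.18, with a 95% interval from -0.15 to 0.54. Dlk1 was thus high in ICAM1+ cells, with the other populations close together.

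Mest, a hydrolase-like protein of the endoplasmic reticulum whose level varies with fat mass expansion, followed another pattern. Its fitted levels were 1088 in DPP4+, 2153 in ICAM1+ and 2141 in CD142+ cells. It was 1.98-fold and 1.97-fold higher in the ICAM1+ and CD142+ populations than in DPP4+ cells (0.98 ± 0.13 in each case), with a difference between them of 0.01 ± 0.13. Peg10, a retrotransposon-derived gene essential for the placenta, was at 696, 1320 and 732 in DPP4+, ICAM1+ and CD142+ cells and was 1.90-fold higher in ICAM1+ than in DPP4+ cells (0.92 ± 0.15). Like Dlk1, it was higher in ICAM1+ than in CD142+ cells (0.85 ± 0.15) and was not called between CD142+ and DPP4+ cells (0.07 ± 0.15). Plagl1, a zinc finger transcription factor, stood at 4654, 4676 and 3416, and was lower in CD142+ than in DPP4+ cells (fold change 0.734, log2 -0.45 ± 0.11) and lower than in ICAM1+ cells by the same amount.

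Among the growth-limiting members, Cdkn1c, H19 and Grb10 were all lower in CD142+ than in DPP4+ cells, and none of the 4 with an adjusted p was higher. Of all genes tested 8.91% were lower in that comparison, and 14.4% of those whose mean reached 100. In ICAM1+ against DPP4+ cells 2 of 4 were lower (Cdkn1c and Grb10) and 1 was higher (Igf2r). There 12.0% of all genes tested were lower and 12.4% higher, and 20.5% and 16.6% of those whose mean reached 100. Cdkn1c, an inhibitor of cyclin-dependent kinases, had fitted levels of 3010 in DPP4+, 862 in ICAM1+ and 686 in CD142+ cells. It was 3.49-fold lower in ICAM1+ (log2 fold change -1.80 ± 0.12, adjusted p = 4.2e-45, Wald test) and 4.39-fold lower in CD142+ cells (-2.13 ± 0.13, adjusted p = 2.28e-62). The difference between ICAM1+ and CD142+ cells, 0.33 ± 0.13, did not pass (adjusted p = 0.0905). About 30.7% of the exon bases of Cdkn1c are shared with Gm44732, a gene model on the other strand. Grb10, an adaptor that dampens signalling from the insulin receptor, was at 3813, 2014 and 2580. It was 1.89-fold lower in ICAM1+ and 1.48-fold lower in CD142+ than in DPP4+ cells, and was lower in ICAM1+ than in CD142+ cells (-0.36 ± 0.12), a call that missed the threshold once the fold changes were re-centred (adjusted p = 0.0507). Phlda2, which limits growth of the placenta, had a mean of 1.31 and no adjusted p.

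H19, a maternally expressed non-coding RNA, ranked 14th by mean among all 20655 genes, with fitted levels of 62479 normalised counts in DPP4+, 41449 in ICAM1+ and 21588 in CD142+ cells. It was 2.89-fold lower in CD142+ than in DPP4+ cells (log2 fold change -1.53 ± 0.40, adjusted p = 0.000983, Wald test). The difference in ICAM1+ cells did not pass (-0.59 ± 0.40, 95% interval from -1.37 to 0.18, adjusted p = 0.306), nor did that between ICAM1+ and CD142+ cells (0.94 ± 0.40, adjusted p = 0.133). The SE of 0.395 was higher than that of each of the 23 genes whose mean lay within 2-fold of that of H19, for which the median SE was 0.117 and the highest 0.366. H19 was thus the most abundant member and one of the least precisely measured for its level, and without values per library it could not be seen whether 1 library stood apart. Igf2, its paternally expressed neighbour and no member of the list, had nearly the same fitted pattern with a smaller error, at 70335, 42948 and 24774.

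H19 also carries a microRNA hairpin, miR-675, at chr7:142577064-142577147 on the minus strand (GRCm38), wholly within an exon. The intron of Mest holds another, miR-335, at chr6:30741299-30741396 on the plus strand. Their mature sequences from RefSeq (GRCm38.p6) are given because their precursors are part of these 2 transcripts, with the seed (bases 2 to 8) in capitals. The oligo(dT)-selected libraries did not measure the mature microRNAs. The 4 seeds differ from each other.
mmu-miR-675-5p: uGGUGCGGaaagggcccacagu
mmu-miR-675-3p: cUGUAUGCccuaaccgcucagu
mmu-miR-335-5p: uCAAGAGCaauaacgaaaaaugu
mmu-miR-335-3p: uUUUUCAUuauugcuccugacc

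**Figure D3:**
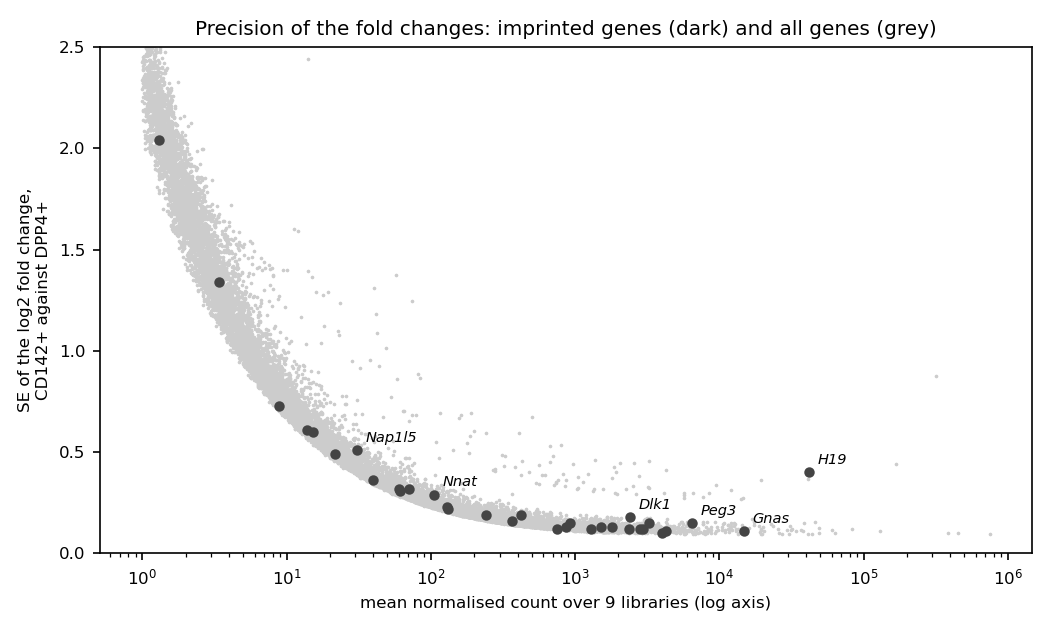
Standard error of the log2 fold change in CD142+ against DPP4+ cells against the mean normalised count, for the imprinted genes (dark) and all genes (grey). The SE falls with the mean. H19, at 0.395, lies above each of the 23 genes within 2-fold of its mean, whose median SE was 0.117 and highest 0.366.

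Among the domains with 3 or more listed members measured, only in the Peg3 domain on chromosome 7 were all of these higher than in DPP4+ cells in both comparisons. Zim1, a maternally expressed zinc finger gene (chr7:6671269-6696450, minus strand), had fitted levels of 856 normalised counts in DPP4+, 3397 in ICAM1+ and 4609 in CD142+ cells. It was 3.97-fold higher in ICAM1+ (1.99 ± 0.12, adjusted p = 1.24e-59, Wald test) and 5.39-fold higher in CD142+ cells (2.43 ± 0.12, adjusted p = 5.71e-89). Its level in ICAM1+ cells was below that in CD142+ cells (-0.44 ± 0.12). Peg3, a paternally expressed zinc finger transcription factor (chr7:6703892-6730431, minus strand), was at 3048, 7281 and 9153, and was 2.39-fold and 3.0-fold higher in ICAM1+ and CD142+ cells (1.26 ± 0.15 and 1.59 ± 0.15). Usp29, a paternally expressed ubiquitin-specific protease (chr7:6730578-6967219, plus strand), was expressed far lower, at 33.4, 72.9 and 76.3, and was 2.18-fold and 2.29-fold higher (1.13 ± 0.31 and 1.19 ± 0.31). About 14.8% of the exon bases of Usp29 are shared with other gene models, more with Zim3 than with any other. Zim3, an imprinted gene outside the list, had a mean of 3.98 and was not called (0.15 ± 1.08 in ICAM1+ and 0.23 ± 1.07 in CD142+ cells). The maternally expressed Zim1 and the paternally expressed Peg3 and Usp29 thus differed in the same direction.

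Peg3 and Usp29 are transcribed away from each other from starts 147 bases apart in the GENCODE annotation, and that of Zim1 lies 34.0 kb from the start of Peg3. The 2 promoters, from 250 bases before to 50 after each RefSeq start, overlap over most of their length. That of Peg3 (chr7:6730370-6730669, minus strand, GRCm38.p6) is shown because the pair shares it and both genes were higher in the same populations, and that of Zim1 (chr7:6696383-6696682, minus strand) because the gene differed most in the domain. Capitals mark the letters TGACGTCA, the cAMP response element, which reads the same on both strands. It was searched after the sequences had been seen, and occurred in the windows of Peg3, Usp29 and Meg3 among the 30 members with a RefSeq promoter. These are 3 of the 43 windows of members (7.0%), beside 1.8% of all 32851 promoter windows. The overlapping windows of Peg3 and Usp29 hold the same site, which is counted once for each gene. The Peg3 window holds 13 CG dinucleotides and the Zim1 window 20, and the median is 11 over the 43 windows of members and 7 over all windows.
Peg3: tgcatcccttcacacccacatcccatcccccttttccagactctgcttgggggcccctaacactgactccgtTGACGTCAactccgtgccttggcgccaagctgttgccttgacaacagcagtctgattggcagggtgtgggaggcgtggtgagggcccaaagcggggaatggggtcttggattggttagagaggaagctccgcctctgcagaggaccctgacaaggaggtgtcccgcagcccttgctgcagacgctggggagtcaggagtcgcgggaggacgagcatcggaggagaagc
Zim1: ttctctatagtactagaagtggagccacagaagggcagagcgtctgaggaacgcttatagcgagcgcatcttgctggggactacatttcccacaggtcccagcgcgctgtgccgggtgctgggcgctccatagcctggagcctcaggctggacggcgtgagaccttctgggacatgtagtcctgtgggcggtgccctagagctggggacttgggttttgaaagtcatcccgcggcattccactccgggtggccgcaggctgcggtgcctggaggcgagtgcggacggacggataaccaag

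In the Dlk1-Meg3 domain on chromosome 12, the paternally expressed and maternally expressed genes did not share a pattern. Meg3, Rian and Mirg are maternally expressed non-coding RNAs transcribed from the same strand downstream of Dlk1, and Meg3 starts 88.2 kb from it. Meg3 had fitted levels of 3559 in DPP4+, 3555 in ICAM1+ and 2702 in CD142+ cells. In ICAM1+ against DPP4+ cells, where Dlk1 was 3.62-fold higher, the 95% interval for Meg3 ran from -0.30 to 0.29 on the log2 scale. In CD142+ cells Meg3 was lower than in DPP4+ cells (-0.40 ± 0.15, adjusted p = 0.0446), a call that missed the threshold when p-values were adjusted over every gene (0.0527) or after re-centring (0.0993). Rian stood at 2834, 2263 and 2054 and was lower in ICAM1+ (-0.32 ± 0.12) and CD142+ cells (-0.46 ± 0.12). The first of these calls missed the threshold after re-centring (adjusted p = 0.089). Mirg stood at 445, 467 and 363 and passed in no comparison. It spans 14 microRNA hairpins on its strand, Rian 3 and Meg3 1. The promoter windows of Dlk1 (chr12:109452573-109452872, plus strand) and of the upstream start of Meg3 (chr12:109540746-109541045, plus strand) are shown side by side because the 2 genes are oppositely imprinted and differed in pattern. The first holds 9 CG dinucleotides and the second 13, and only the second holds the capitalised TGACGTCA.
Dlk1: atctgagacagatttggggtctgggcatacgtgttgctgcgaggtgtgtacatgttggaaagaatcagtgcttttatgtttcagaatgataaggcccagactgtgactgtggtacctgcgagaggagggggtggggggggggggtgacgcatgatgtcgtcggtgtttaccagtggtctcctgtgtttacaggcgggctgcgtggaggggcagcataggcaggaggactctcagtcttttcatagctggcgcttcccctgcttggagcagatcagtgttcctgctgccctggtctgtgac
Meg3: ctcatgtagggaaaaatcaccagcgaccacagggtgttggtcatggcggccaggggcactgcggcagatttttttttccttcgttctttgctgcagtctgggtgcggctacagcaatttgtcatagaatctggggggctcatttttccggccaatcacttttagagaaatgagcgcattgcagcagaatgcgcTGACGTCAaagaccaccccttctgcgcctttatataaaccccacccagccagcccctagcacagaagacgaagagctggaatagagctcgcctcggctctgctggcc

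In the Peg10-Sgce domain on chromosome 6, Sgce and Peg10 are both paternally expressed and start 99 bases apart on opposite strands, the same arrangement as Peg3 and Usp29, but they were called in opposite directions. Sgce, which encodes epsilon-sarcoglycan, stood at 880, 690 and 694 in DPP4+, ICAM1+ and CD142+ cells. It was lower in ICAM1+ (-0.35 ± 0.12, adjusted p = 0.02) and CD142+ cells (-0.34 ± 0.12, adjusted p = 0.0292), and neither call passed after re-centring (adjusted p = 0.0744 and 0.0832). Peg10 was higher in ICAM1+ cells, as given above. Ppp1r9a, which encodes the actin-binding protein neurabin, stood at 278, 247 and 197 and was lower in CD142+ than in DPP4+ cells (-0.49 ± 0.19, adjusted p = 0.0484, or 0.0573 adjusted over every gene and 0.0916 after re-centring). Asb4, an adaptor for ubiquitin ligases, had a mean of 70.9 and was 2.31-fold higher in ICAM1+ than in DPP4+ cells (1.21 ± 0.31). In CD142+ cells its difference was 0.79 ± 0.32 (adjusted p = 0.0614), which passed after re-centring (0.0415).

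Mest and Copg2 on chromosome 6 are transcribed toward each other and overlap at their ends. Copg2, which encodes a coat protein subunit of transport vesicles, stood at 581, 1003 and 1018 and was 1.73-fold and 1.75-fold higher in ICAM1+ and CD142+ than in DPP4+ cells (0.79 ± 0.13 and 0.81 ± 0.13). It shares 17.8% of its exon bases with Mest, and Mest shares 23.1% with Copg2 on the other strand. The library protocol in the labels names no strand marking, so reads from the shared bases cannot be assigned to either gene, and the near equality of the 2 patterns was not tested on bases outside the overlap.

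In the Igf2r domain on chromosome 17, Airn, the paternally expressed antisense RNA that silences Igf2r on its own chromosome, differed more between populations than Igf2r did, though the 2 differences were not tested against each other. Airn stood at 63.7, 203 and 121 and was 3.18-fold higher in ICAM1+ (1.67 ± 0.23) and 1.89-fold higher in CD142+ than in DPP4+ cells (0.92 ± 0.23), as well as higher in ICAM1+ than in CD142+ cells (0.75 ± 0.21). Igf2r, the maternally expressed receptor that clears insulin-like growth factor 2, stood at 3677, 4399 and 3971. Its difference between ICAM1+ and DPP4+ cells of 0.26 ± 0.10 passed narrowly (adjusted p = 0.0496, or 0.0573 adjusted over every gene), and that in CD142+ cells was 0.11 ± 0.10. Airn starts within Igf2r, and no exon bases of the 2 genes overlap in the annotation. How far reads of Igf2r entered the count of Airn was not tested.

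In the Kcnq1 domain on chromosome 7, only Cdkn1c and Kcnq1ot1 had a mean of at least 100 among the 5 listed members. Imprinted genes outside the list were counted apart, without regard to domain, so this does not describe the whole domain. Kcnq1ot1 is the paternally expressed RNA that silences the domain. Kcnq1ot1 stood at 125, 169 and 103 and was higher in ICAM1+ than in CD142+ cells (0.71 ± 0.22, adjusted p = 0.0148). Against DPP4+ cells it did not pass, with log2 fold changes of 0.43 ± 0.22 (ICAM1+) and -0.28 ± 0.22 (CD142+). Slc22a18, a membrane transporter, had a mean of 15.3 and was lower in ICAM1+ than in DPP4+ cells (-2.32 ± 0.66). Ascl2, a transcription factor of the placenta, had a mean of 3.39 and passed in no comparison.

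In the Snrpn domain on chromosome 7, Ndn was the only member called. Ndn encodes necdin, a growth suppressor of the MAGE family, stood at 1544, 981 and 1337, and was lower in ICAM1+ than in DPP4+ (-0.65 ± 0.12) and in CD142+ cells (-0.45 ± 0.12). Magel2, Peg12 and Snrpn had means of 21.8, 39.5 and 8.87 and passed in no comparison. About 34.1% of the exon bases of Snrpn are shared with other gene models, 27.3% on the same strand. How far this lowered the count of Snrpn was not tested. The Grb10 domain also holds Ddc, which encodes an enzyme of dopamine and serotonin synthesis. It had a mean of 13.8 and was lower in ICAM1+ than in DPP4+ (-2.50 ± 0.74) and CD142+ cells (-2.29 ± 0.74).

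The remaining domains had a single member each. Nnat, which encodes neuronatin, a small membrane protein of the endoplasmic reticulum, stood at 37.0, 181 and 96.9. It was 4.89-fold higher in ICAM1+ (2.29 ± 0.29) and 2.62-fold higher in CD142+ than in DPP4+ cells (1.39 ± 0.29), and differed between ICAM1+ and CD142+ cells as well (0.90 ± 0.26). Nnat lies within Blcap, which had a mean of 241 and passed in no comparison. How far reads of Blcap entered the count of Nnat was not tested. Gnas, the gene of the stimulatory G protein alpha subunit, ranked 45th of all genes by mean, stood at 11734, 16589 and 16039, and was 1.41-fold and 1.37-fold higher in ICAM1+ and CD142+ cells (0.50 ± 0.11 and 0.45 ± 0.11). Its parental origin depends on the isoform, the tables sum all isoforms, and 22.0% of its exon bases lie over gene models on the other strand.

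Nap1l5, a nucleosome assembly protein-like gene, had a mean of 30.9 and fitted levels of 6.86, 14.1 and 71.7, and was 10.5-fold higher in CD142+ than in DPP4+ cells (3.39 ± 0.51). The ICAM1+ level was below the CD142+ level (-2.35 ± 0.45). It lies within Herc3, which stood at 14.3, 46.9 and 58.3 and was higher in both ICAM1+ (1.71 ± 0.41) and CD142+ cells (2.03 ± 0.40). The 2 genes share no exon bases in the annotation, and how far reads of one entered the count of the other was not tested. Impact, a regulator of translation, stood at 390, 323 and 385, and Zrsr1, a splicing factor-like gene, had a mean of 60.7. Neither passed in any comparison.

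Grouped by the parental copy expressed, 7 of the 17 paternally expressed genes were higher and 2 lower in ICAM1+ than in DPP4+ cells (41.2% and 11.8%), with a median log2 fold change of 0.76. Of the 13 maternally expressed genes with an adjusted p, 4 were higher and 4 lower (30.8% each), with a median of -0.17. Beside the 12.4% and 12.0% of all genes tested, the share of lower paternally expressed genes was at the background. In CD142+ against DPP4+ cells 6 of 17 paternally expressed genes were higher and 2 lower, with a median of 0.18, and 2 of 13 maternally expressed genes were higher and 6 lower, with a median of -0.46, beside 10.1% and 8.91% of all genes. In ICAM1+ against CD142+ cells 6 of 17 paternally expressed genes were higher and 2 lower, and of the 12 maternally expressed genes none was higher and 2, Zim1 and Grb10, were lower, beside 3.77% and 5.28% of all genes. The medians in that comparison ran the other way from these counts, at -0.01 for paternally and 0.24 for maternally expressed genes. The 2 groups were not tested against each other, and genes of a domain are not independent of each other.

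**Figure D4:**
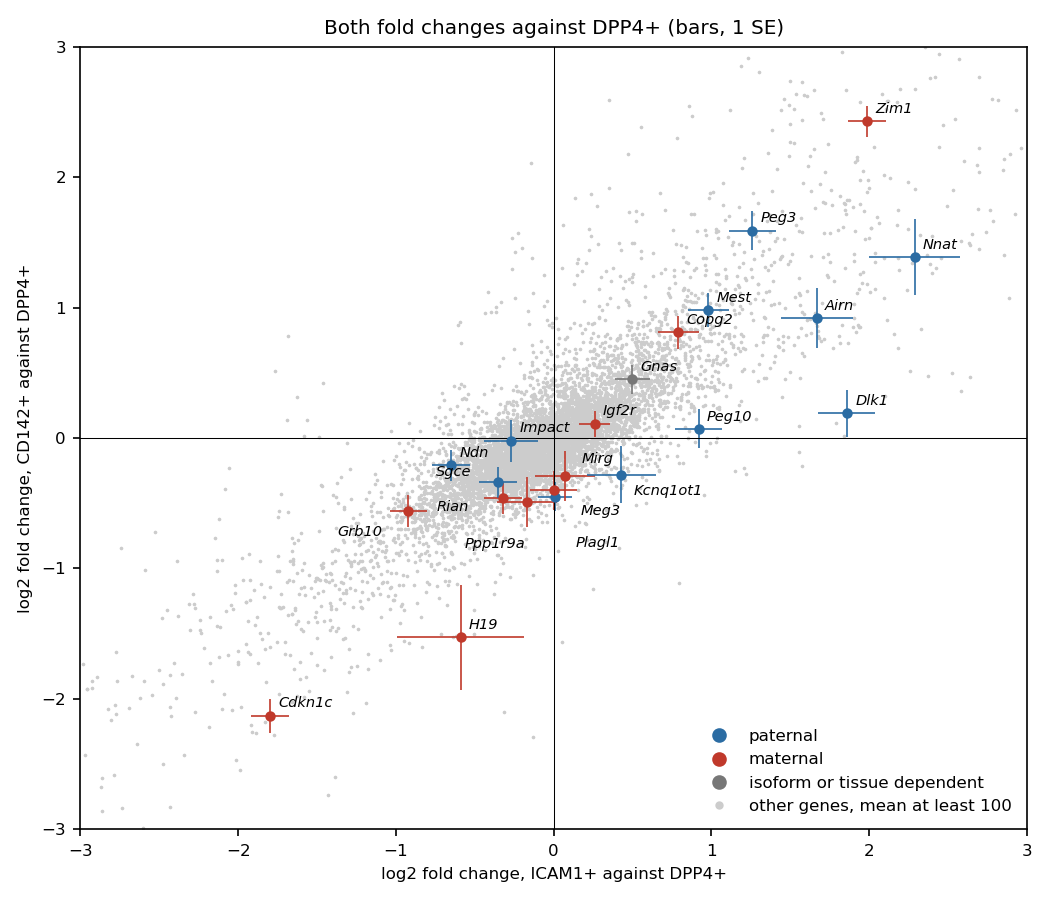
Log2 fold change against DPP4+ cells in ICAM1+ (horizontal axis) and CD142+ cells (vertical axis) of the 22 imprinted genes with a mean of at least 100, with bars of 1 SE, over other genes at that level (grey, both axes limited to -3 to 3). Zim1 and Peg3 lie high on both axes, Cdkn1c low on both, and Dlk1 and Peg10 to the right with values near 0 on the vertical axis. The 2 comparisons share the DPP4+ libraries.

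Markers of other cell types moved with the populations. Of 12 mural cell markers, 7 were higher and 1 lower in ICAM1+ than in DPP4+ cells. Those with the largest change at a mean of 100 or more were Notch3 (3.36 ± 0.14), Acta2 (2.89 ± 0.20) and Myh11 (2.53 ± 0.34). Actg2, with a mean of 34.6, was at 3.52 ± 0.50. The marker that went down was Kcnj8 (-2.06 ± 0.24), and Abcc9 was not called (0.30 ± 0.17). With CD142+ cells as the reference, 7 of the 12 were higher and 2 lower, namely Kcnj8 (-1.83 ± 0.24) and Abcc9 (-0.94 ± 0.17). The mural markers thus did not all change in the same direction. In CD142+ against DPP4+ cells 5 of the 12 were higher and none was called lower (41.7% higher, beside 10.1% of all genes tested). The largest of these changes were in Notch3 (2.69 ± 0.15), Abcc9 (1.24 ± 0.17), Acta2 (1.07 ± 0.20) and Mcam (0.82 ± 0.16). The summed fitted level of the 12 was 2872 in DPP4+, 10773 in ICAM1+ and 6640 in CD142+ cells. Of 10 Schwann cell markers, 8 were higher in ICAM1+ than in DPP4+ cells and 8 were higher than in CD142+ cells, with sums of 1409, 3033 and 1254. In the same comparisons 12.4% and 3.77% of all genes tested were higher. Of 10 endothelial markers, 6 were higher in ICAM1+ than in DPP4+ cells, beside the same 12.4%, with sums of 3047, 4553 and 2874. Immune markers, of which 12 of 14 had a row, summed to 144, 257 and 164, and 8 of them had a mean below 10. Kit, with a mean of 58.3, was the only one called, and was higher in ICAM1+ than in DPP4+ (0.97 ± 0.31) and CD142+ cells (1.0 ± 0.31). The myogenic regulators Myod1, Myf5, Pax7 and Myog had means below 10, and Myod1 (3.35 ± 1.30) and Myog (3.58 ± 1.20) were called higher in ICAM1+ than in DPP4+ cells. The other skeletal muscle markers, Acta1, Ckm, Mylpf and Tnnt3, had means from 10.6 to 46.1 and passed in no comparison. Their log2 fold changes in ICAM1+ against DPP4+ cells ran from -1.34 ± 0.73 (Mylpf) to 0.82 ± 0.58 (Ckm). The Schwann and endothelial sums, like Dlk1 and Peg10, were highest in ICAM1+ cells and similar in the other 2 populations. The mural sum was higher in both ICAM1+ and CD142+ than in DPP4+ cells. The part of these cell types in the values of the imprinted genes was not tested. In such bulk libraries, fewer cells of a type and less RNA per cell cannot be told apart.

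The 5 genes nearest to Dlk1 in their 2 fold changes against DPP4+ cells, taken from the 7927 other genes whose mean reached 100, were Tinagl1, Lama5, Tagln, Slc24a3 and Fabp4, at distances from 0.10 to 0.40 on the log2 scale. Tagln encodes an actin-binding protein of smooth muscle and Fabp4 the fatty acid-binding protein of adipocytes. The log2 fold change of Fabp4 was 1.56 ± 0.18 in ICAM1+ and 0.46 ± 0.18 in CD142+ cells. The 5 nearest to Cdkn1c were Sox13, Ptgis, Creb5, Gm47040 and Ahr, at distances from 0.05 to 0.16. Sox13 had log2 fold changes of -1.83 ± 0.22 and -2.18 ± 0.22, and Ahr, the aryl hydrocarbon receptor, of -1.91 ± 0.21 and -2.26 ± 0.21.

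Genes of the cell cycle were measured beside Cdkn1c. Of 27, 13 were higher and 2 lower in ICAM1+ than in DPP4+ cells, and 7 were higher and 2 lower in CD142+ cells. These are 48.1% and 7.41% in ICAM1+ cells, beside 12.4% and 12.0% of all genes tested. In CD142+ cells they are 25.9% and 7.41%, beside 10.1% and 8.91%. Mki67, a marker of dividing cells, was higher in ICAM1+ (1.53 ± 0.23) and CD142+ cells (1.08 ± 0.23), as was Top2a (1.19 ± 0.19 and 0.80 ± 0.19). Ccnd3, a cyclin of early cell cycle phases, was lower in both (-0.87 ± 0.14 and -0.70 ± 0.14), as was E2f1 (-0.92 ± 0.19 and -0.56 ± 0.19). The related kinase inhibitors Cdkn1a (-0.13 ± 0.12 and -0.06 ± 0.12) and Cdkn1b (0.28 ± 0.16 and 0.27 ± 0.16) passed in neither comparison. Cdkn1c was thus lower where Mki67 and Top2a were higher and where Ccnd3 and E2f1 were also lower. A relation between these genes was not tested.

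Of 23 genes that maintain imprints or silence chromatin, 6 were higher in ICAM1+ than in DPP4+ cells and 3 in CD142+ cells (26.1% and 13%), and none was lower. Of all genes tested 12.4% and 10.1% were higher, so the share in CD142+ cells was near the background. Zfp445, a zinc finger protein that guards imprints, was higher in ICAM1+ (0.76 ± 0.17) and CD142+ cells (1.24 ± 0.16). Ezh2, the methyltransferase of the Polycomb complex, was higher in ICAM1+ cells (0.94 ± 0.22), and Dnmt3a, a DNA methyltransferase, in CD142+ cells (0.38 ± 0.12). Dnmt1, which copies methylation when DNA is replicated, passed in no comparison.

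Of the 35 other imprinted genes with an adjusted p, 7 were higher and 9 lower in ICAM1+ than in DPP4+ cells, and 4 were higher and 5 lower of 34 in CD142+ cells. These are 20% and 25.7% in ICAM1+ cells, beside 12.4% and 12.0% of all genes tested and 16.6% and 20.5% of the genes whose mean reached 100. In CD142+ cells they are 11.8% and 14.7%, beside 10.1% and 8.91% of all genes tested and 14.0% and 14.4% of the genes whose mean reached 100. Besides Igf2, the largest differences at a mean of at least 100 were in Tnfrsf23, a decoy receptor (-1.60 ± 0.24 in ICAM1+ and -0.73 ± 0.23 in CD142+ cells), and Atp10a, a phospholipid-transporting ATPase (-1.23 ± 0.16 and -0.77 ± 0.15). Zdbf2 was higher in ICAM1+ cells (0.66 ± 0.22), and Gab1, a docking protein of receptor kinases, was higher in both (0.65 ± 0.15 and 0.54 ± 0.15).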

How the data were processed

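RNA sequencing of 9 libraries, 3 from each of the DPP4+, ICAM1+ and CD142+ stromal populations, was taken from 3 tables that the authors deposited, 1 per pair of populations. Per the labels, mRNA was enriched with oligo(dT) beads. The submitters' processing notes name STAR 2.5.2a, R 3.5.1, DESeq2 and build mm10, while for the counter, the strand setting and the library sizes nothing is given in the sources used here. The deposited mean of normalised counts is a signal over all 9 libraries. The authors' deposited log2 fold changes and SE come from DESeq2, and the deposited p-values, raw and Benjamini-Hochberg adjusted, are those of its Wald test, named from the file layout. The direction was read from the table names and agrees in sign with Dpp4 and F3. These columns are the authors' own comparisons. They were used as deposited since no values per library are in the tables, and no fold change was refitted. Depth per library is therefore unknown.

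The 4 summary rows of reads with no gene (59.6% of the summed means, of which reads outside annotated features made 46.5%) were left out here but stand in the deposited tables beside the genes. Ensembl identifiers were matched to symbols (20618 of 20655), with coordinates, exon lengths and exon overlaps from GENCODE M21 (GRCm38, the same assembly as mm10). A population's level was computed from the mean and the 2 fold changes against DPP4+, assuming equal weights for the populations. A call is an adjusted p below 0.05. Genes without an adjusted p stayed uncalled. 95% intervals are the fold change ± the normal quantile times its SE, and cover the spread the authors' fit estimated.

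The members and gene lists were chosen with earlier results of these data known. Every member is named. Those with a mean of at least 100 that passed in at least 1 comparison are given with levels and fold changes, those below 10 or with no row are named as such, and from other lists up to 4 called genes with the largest change and a mean of at least 100 were eligible. Likeness is the Euclidean distance over the 2 fold changes against DPP4+. Herc3, Zim3, Blcap, Actg2, Kcnj8, Abcc9 and Kit were named outside this rule, after their values were seen. So were the skeletal muscle markers, the cell cycle inhibitors, Dnmt1 and the sort genes. The alternatives were thresholds of 0.01 and 0.1, p-values adjusted over all genes or over those whose mean reached 10, a log2 fold change above 1, re-centring, and leaving out members with over 20% shared exon bases. A gene of the marker lists is not reported here. The scripts were tested on simulated data. Python 3.11.15, numpy 2.4.6, pandas 2.3.3, scipy 1.17.1 and matplotlib 3.10.9 were used.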

Additional observations from a re-analysis of the deposited data

How the results depend on the processing

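Each of the 6 counts of called members was recomputed under 7 alternatives. With a log2 fold change above 1 also required, the counts fell to 7 higher and 3 lower in ICAM1+ against DPP4+, 5 and 2 in CD142+ against DPP4+, and 1 and 2 in ICAM1+ against CD142+. At an adjusted p below 0.01, 5 members were lower in CD142+ against DPP4+ and 3 were lower in ICAM1+ against CD142+. After re-centring on genes with a mean of at least 100, whose median was -0.07, -0.05 and -0.02, 5 were lower in CD142+ against DPP4+. The other recomputed counts stayed within 1.5 times. Of the single members' fold changes, 3 lost their call when adjusted over every gene, and 6 lost and 1 gained a call on re-centring, each named with its value in the text. Re-centring turned the sign of 7 values, none of them called, to 0.07 for Meg3 and 0.04 for Snrpn in ICAM1+ against DPP4+, to 0.04 for Snrpn and 0.04 for Impact in CD142+ against DPP4+, and to 0.01 for Sgce, 0.00 for Copg2 and 0.01 for Snrpn in ICAM1+ against CD142+.

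No paired analysis was possible because the tables hold no values per library, so fits with a replicate block, fits leaving out a library and other normalisations were not run. Depth per library is unknown. The SE sets the limit, with a median of 0.14 for the members with a mean of at least 100 in ICAM1+ against DPP4+.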
